A study of Mus musculus with 2 samples.

Results

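The nuclear genes for the subunits of respiratory complexes I, III and IV and of ATP synthase (complex V) were read across the melanoma and immune cells of mouse B16F10 tumours. They were chosen by gene symbol alone: every symbol of the gene list that begins with Nduf followed by a, b, c, s or v, with Uqcr, with Cox and a digit from 4 to 8 and a letter, or with Atp5, leaving out the Ndufaf assembly factors and the muscle isoform Cox6a2. This gave 80 of 31053 genes, of which 36 were assigned to complex I, 8 to complex III, 19 to complex IV and 17 to complex V. No UMI (unique molecular identifier, 1 per captured transcript) was counted for 3 of them, Cox7b2, Cox8c and the second of a pair of gene entries named Atp5o. Another 71 held over 10000 UMIs each, and 6 were rare, with 1036 UMIs for Cox7a1, 799 for Atp5s, 122 for Ndufa4l2, 91 for Cox4i2, 76 for Cox6b2 and 17 for Cox8b.

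The respiratory chain passes electrons from NADH through complexes I, III and IV to oxygen and pumps protons across the inner mitochondrial membrane, and ATP synthase uses the proton gradient to make ATP. Its subunits come from both genomes: 13 core proteins are encoded in mitochondrial DNA, and all others in the nucleus, so assembly needs transcripts of both. In cells short of oxygen the transcription factor HIF-1 is known to raise glycolytic genes and some alternative subunits, among them Ndufa4l2 and Cox4i2, and solid tumours such as B16F10 melanoma hold poorly oxygenated regions.

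B16F10 is a transplantable melanoma line of C57BL/6 mice. Tumours were taken 2 weeks after injection from a WT group (LysM-cre x Rel+/+) and from a Myeloid specific c-Rel KO group (LysM-cre x RelloxP/loxP). Both groups carried LysM-cre, which is active in myeloid cells of the host and absent from the injected line, and the Rel gene, for the NF-kB subunit c-Rel, could be deleted only in the second. Viable CD45+ cells of 5 pooled tumours per group were sorted after digestion and a Percoll step and made into 1 droplet 3′ library per group. The matrix names the libraries only by a number, 1 or 2, and the labels do not say which genotype each number is. No genotype was therefore assigned, nothing on c-Rel was read, and every value is given for library 1 and then for library 2.

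Library 1 held 7688 barcodes and 49129318 UMIs and library 2 held 10564 barcodes and 73507228 UMIs, with medians of 1588 and 4290 UMIs. The libraries shared 3609 barcode sequences, and a barcode was left out as a copy where the same sequence had over 10 times its UMIs in the other library (1991 and 1602 barcodes). After barcodes under 500 UMIs, under 200 genes or over 10% mitochondrial UMIs were also removed, 5198 and 7999 were kept. Although the sort was for CD45+ cells, 2221 and 5334 of these barcodes passed a gate on pigment cell genes (Pmel, Mlana, Dct, Tyrp1, Tyr, Slc45a2 and Sox10) and lacked immune transcripts: Ptprc, the gene for CD45, stood at 4.80 and 3.54 CPM (UMIs of the gene per 1000000 UMIs of the class), while monocyte barcodes had 831 and 552 CPM. Immune classes were gated on lineage markers, and barcodes passing more than 1 lineage gate (203 and 113) were set aside. Pigment transcripts were not absent from immune barcodes: their summed level was 2.23% of the melanoma level in macrophage and 2.56% in monocyte barcodes of library 1, and 6.86% and 7.20% in library 2. With 1 library per genotype no test was possible, so the intervals given are exact 95% intervals that cover counting error only. A gene is called higher or lower in a class where the ratio of its CPM is at least 1.5, or at most 0.667, in both libraries. Counts of calls under other gates or limits are of respiratory genes alone, unless a share of all genes stands beside them. Alone, they do not show whether respiratory genes moved more than genes at large. Each library had to hold 50 or more UMIs of the gene in the classes compared. Such counts of UMIs from transcript ends were not divided by transcript length, and CPM levels are compared between genes on that scale. Short transcripts stood higher in library 2, as given below, so the order of genes within a library may depend on length. That part was not tested.

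Promoters in the RefSeq table (build GRCm38.p6, 250 bases before to 50 after the start) were found for 64 of the 80 genes, as 69 windows. They were searched on both strands for 3 motifs known from respiratory gene promoters. The palindromic NRF1 motif, bound by nuclear respiratory factor 1 and capitalised in the sequences shown here, stood in 5 of 69 windows (7.25%) and in 319 of all 32851 windows (0.971%). These 5 sites are shown because their genes carry the best known motif of this gene group and differ widely in the comparisons that follow. Capitals mark the motif in 30 bases of the gene's own strand, and a YY1 site follows for comparison.
Atp5g2: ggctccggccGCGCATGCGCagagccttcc
Atp5k: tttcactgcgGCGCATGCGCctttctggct
Cox6a1: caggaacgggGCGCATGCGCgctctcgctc
Ndufa11: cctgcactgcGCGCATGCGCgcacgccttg
Uqcrc1: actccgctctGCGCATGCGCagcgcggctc
Ndufs7 (YY1): gccgaggccAAGATGGCGGCgctggcgggt
The first 5 windows lie at chr15:102671070-102671099 on the minus strand (Atp5g2), chr5:108434430-108434459 minus (Atp5k), chr5:115349101-115349130 minus (Cox6a1), chr17:56717692-56717721 plus (Ndufa11) and chr9:108936668-108936697 plus (Uqcrc1). The motif begins 42, 50, 162 and 60 bases before the RefSeq start in the first 4, and 31 bases after it, in transcribed sequence, in Uqcrc1. The gene spans listed for Atp5g2 (chr15:102662864-102672352) and Atp5k (chr5:108433244-108434448) hold the first window and overlap the second. For both, the place before the start refers to the RefSeq start alone. The ETS motif CCGGAAG, read by GABP, was found in 14 windows (20.3%, against 8.86% of all windows). The YY1 motif in capitals in the Ndufs7 window (chr10:80249464-80249493, plus strand, 25 bases after the start, in transcribed sequence) was found in 4 (5.80%, against 0.633%), and all 4 belong to complex I: Ndufa9, Ndufs4, Ndufs6 and Ndufs7. A match is a stretch of letters and not a measured site.

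Across cell classes, the share of all UMIs that came from the 80 genes was highest in melanoma barcodes and lowest in neutrophils in both libraries. It was 4.01% and 4.51% in melanoma, with a median over barcodes of 3.97% in library 1 and the middle 50% of barcodes between 3.47% and 4.4%. CD8 T cells came next, at 2.5% (2.45 to 2.54) and 2.90% (2.84 to 2.97). Macrophages held 2.26% (2.24 to 2.28) and 2.62% (2.60 to 2.65), and monocytes 1.98% (1.95 to 2.0) and 2.15% (2.12 to 2.19). Between these lay CD4 T cells (2.36% and 2.51%), dendritic cells (2.20% and 2.18%), NK cells (2.14% and 2.20%) and plasmacytoid dendritic cells (2.09% and 2.29%). B cells followed, at 1.57% (1.47 to 1.66) and 1.71% (1.35 to 2.12), and neutrophils held 0.794% (0.716 to 0.878) and 1.62% (1.47 to 1.77). The median neutrophil barcode of library 2 held 1.12%, with an upper quartile of 1.63%, so most of the 32 barcodes lay below that summed value. The intervals of NK, dendritic and plasmacytoid dendritic cells overlapped, as did those of B cells and neutrophils in library 2, and their order is not resolved.

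**Figure D1:**
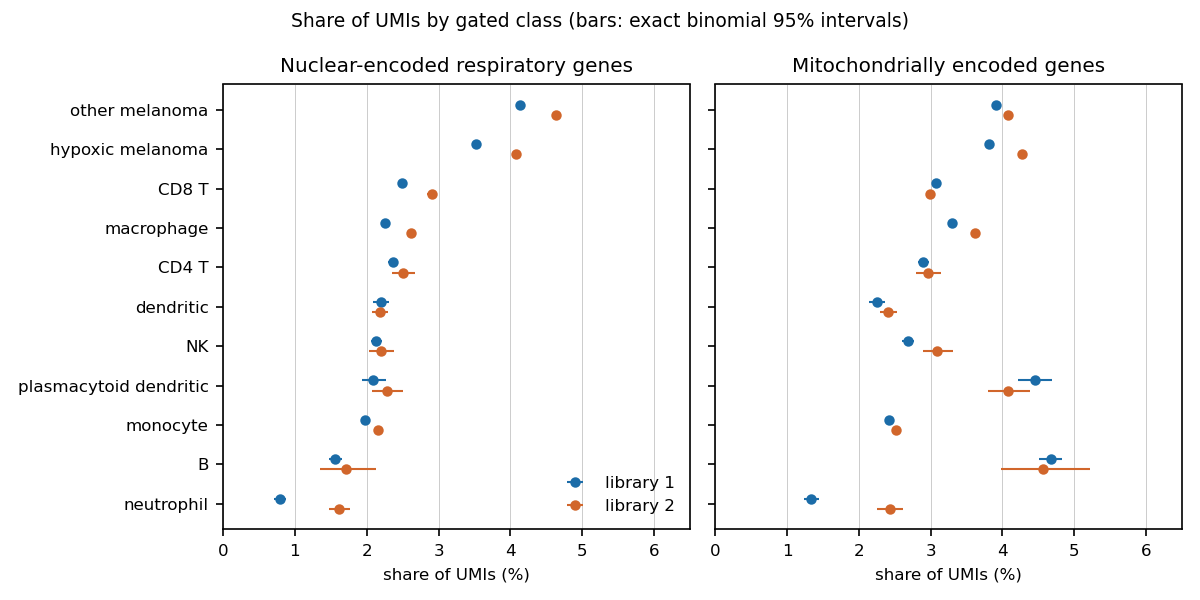
Share of all UMIs from the 80 nuclear respiratory chain genes (left) and from the 13 mitochondrially encoded subunit genes (right), in percent, for 11 barcode classes of library 1 and library 2, with exact 95% intervals for counting error. Melanoma barcodes outside the hypoxic range lead the nuclear panel at 4.14% and 4.63%. B cells and plasmacytoid dendritic cells stand near or above melanoma in the mitochondrial panel and well under it in the nuclear one.

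The mitochondrially encoded subunits did not follow the same order. Their share was 4.67% and 4.57% in B cells and 4.45% and 4.08% in plasmacytoid dendritic cells, as high as the 3.89% and 4.12% of melanoma, although the nuclear share was well under that of melanoma. The nuclear share divided by the mitochondrial share was accordingly 1.03 and 1.09 in melanoma, 0.811 and 0.969 in CD8 T cells, 0.814 and 0.855 in monocytes, 0.685 and 0.724 in macrophages, 0.470 and 0.560 in plasmacytoid dendritic cells and 0.335 and 0.373 in B cells. Library 2 held only 6 B cell barcodes and 14 of the plasmacytoid type, against 87 and 19 in library 1. The share of mitochondrial UMIs also decides which barcodes pass the 10% filter, so the highest values of that share are cut off by the processing.

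By complex, the melanoma share was 1.22% and 1.38% for nuclear complex I genes, 0.477% and 0.567% for complex III, 1.249% and 1.41% for complex IV and 1.07% and 1.15% for ATP synthase. Monocytes had 0.575% and 0.619%, 0.214% and 0.246%, 0.614% and 0.654%, and 0.572% and 0.634% for the same complexes. Complex III, with the fewest genes, was the smallest share in melanoma, monocytes, macrophages and CD8 T cells, and complexes I and IV were close to each other. Set against the mitochondrial genes of the same complex, complex IV had the lowest ratio, 0.695 and 0.746 in melanoma and 0.428 and 0.450 in monocytes. The mt-Co transcripts, which encode its catalytic core, were the largest mitochondrial share, at 1.80% and 1.90% in melanoma.

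Single genes of 1 complex spanned a wide range of levels, given here for the 71 abundant genes. In melanoma the most abundant complex I transcript was Ndufb9, an accessory subunit of the membrane arm, at 1283 and 1449 CPM. The least abundant were Ndufa1 in library 1 (73.1 CPM) and Ndufs1, the largest iron-sulfur core subunit, in library 2 (111 CPM). Complex III ran from Uqcr10, a small accessory subunit, at 1236 and 1617 CPM down to the core protein Uqcrc2 at 163 and 151 CPM. Complex IV was led by Ndufa4 (1902 and 1854 CPM), a protein first assigned to complex I and now known as a complex IV subunit, and by Cox4i1 (1888 and 2068 CPM), the general isoform of subunit 4. At its low end stood Cox6a1, at 152 and 187 CPM. ATP synthase ran from Atp5b, the catalytic beta subunit and first in library 1 at 1261 CPM, and Atp5l, subunit g and first in library 2 at 1238 CPM, to Atp5k, subunit e, at 189 and 355 CPM. Within a complex whose subunits are assembled in fixed proportion, the transcript counts thus differed by a factor of several.

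The order of levels was largely shared among classes but not identical. Over the 71 abundant genes, Spearman's rho of the profile was 0.979 between the libraries in melanoma, 0.960 and 0.965 between monocytes and CD8 T cells, 0.913 and 0.927 between melanoma and macrophages, and 0.841 and 0.856 between melanoma and monocytes. These correlations are over genes, which share their libraries, and are given as descriptions. In monocytes complex III was led not by Uqcr10 but by the hinge protein Uqcrh, at 727 and 692 CPM, and so it was in CD8 T cells, at 944 and 1030 CPM, while macrophages resembled melanoma with Uqcr10 on top at 518 and 672 CPM.

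**Figure D2:**
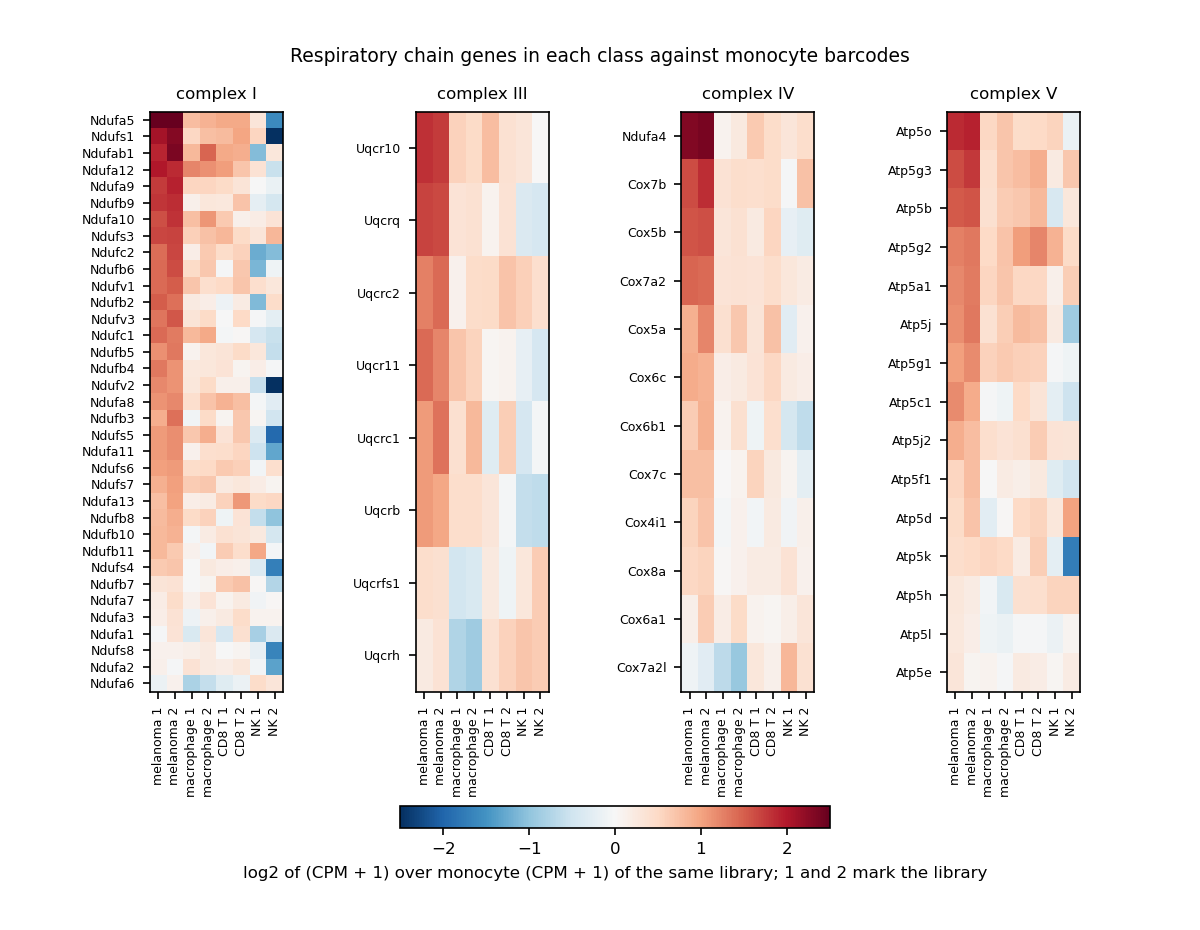
Heat map of the log2 ratio of CPM (pseudocount 1) against monocyte barcodes of the same library for 70 of the 71 abundant genes, in melanoma, macrophage, CD8 T and NK barcodes of libraries 1 and 2. Most genes are above monocytes in melanoma, and Cox7a2l, Ndufa6 and Uqcrh stand out among the genes below monocytes in macrophages.

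Melanoma barcodes carried more respiratory chain transcript than monocytes across all 4 complexes. Of the 73 genes with enough UMIs, 54 were called higher and none lower, where 47.1% of all 11213 genes tested were called higher and 16.6% lower. The median log2 ratio of the respiratory genes was 1.07 and 1.16, against 0.70 and 0.61 for all genes, and without the pseudocount of 0.5 UMIs it was 1.07 and 1.17 against 0.79 and 0.73. The calls were spread over complex I (29 of 36), complex III (6 of 8), complex IV (9 of 13) and ATP synthase (10 of 16), and 8 of the 13 mitochondrial genes were called higher too. Melanoma barcodes were also far deeper, with medians of 18701 and 12278.5 UMIs outside the hypoxic range against 1823 and 1054 in monocytes; the part of depth in these ratios was not tested.

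The widest gaps were not shared evenly within complexes. Ndufa5, an accessory subunit near the quinone end of complex I, stood at 502 CPM in melanoma and 72.4 CPM in monocytes in library 1, and at 660 and 114 CPM in library 2, ratios of 6.93 and 5.80. Ndufa4 stood at 1902 against 381 CPM and at 1854 against 358 CPM (4.99 and 5.18). Ndufs1 stood at 123 against 28.4 CPM and at 111 against 21.9 CPM (4.32 and 5.06). All 3 were separated in both libraries by more than the median gene of the group. The other large ratios were those of the acyl carrier protein Ndufab1 (3.79 and 5.18), Ndufa12 (4.01 and 3.66), the stalk subunit Atp5o (3.66 and 3.80), Ndufa9 (3.39 and 3.83), Uqcr10 (3.56 and 3.38) and Cox7b (3.12 and 3.59). At the other end, Cox4i1 (1.47 and 1.65), Cox8a (1.43 and 1.47) and Cox6a1 (1.11 and 1.56) were not called. Cox7a2l, a Cox7a relative, was the single tested gene below 1 in both libraries, at 378 against 410 CPM and 354 against 428 CPM (0.923 and 0.827).

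To ask how the respiratory genes behave where melanoma cells show an oxygen-shortage response, melanoma barcodes were ranked in each library by the summed share of 15 hypoxia-response genes (such as Car9, Vegfa, Slc2a1 and Ndrg1, none of them a respiratory chain gene), and the highest 25% were called hypoxic. This is a range of a score and not a cell type: 135 (6.08%) and 331 (6.21%) of melanoma barcodes lay within 10% of the threshold. The respiratory share was lower in the hypoxic range, at 3.53% (3.51 to 3.54) against 4.14% (4.13 to 4.15) in library 1 and 4.08% (4.07 to 4.09) against 4.63% (4.62 to 4.63) in library 2, ratios of 0.851 (0.848 to 0.855) and 0.881 (0.879 to 0.884). Single barcodes overlapped: in library 1 the middle 50% lay between 3.11% and 3.88% in the hypoxic range and between 3.69% and 4.52% outside it. The mitochondrial share did not move with the nuclear one, at 3.81% against 3.91% and 4.28% against 4.08% (0.974 and 1.05).

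Per gene the drop was broad and shallow. Of 73 genes tested, 58 had a ratio below 1 in both libraries and 13 above 1 in both, but only 3 were called lower and none higher, where 14.2% of all 10968 genes were called lower and 7.65% higher. The members' median log2 ratio was -0.22 and -0.20, against -0.17 and -0.10 over all genes, so in library 1 it was close to that of genes at large. It was deepest for complex I (-0.31 and -0.24) and ATP synthase (-0.30 and -0.23), smaller for complex III (-0.16 and -0.16) and smallest for complex IV (-0.06 and -0.05). Ribosomal protein genes, in the same barcodes, had medians of 0.13 and 0.06.

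The 3 genes called lower came from 3 different complexes. With the highest 10% of the score as the hypoxic range 5 were called lower, with the highest 50% none, and with stricter gates 2, without Ndufa4, whose mean log2 ratio was then -0.67. The shares of all genes called under these settings are not given. Uqcrc1, core protein 1 of complex III and one of the NRF1-motif genes shown above, fell from 302 CPM to 168 CPM in library 1 and from 323 to 196 CPM in library 2, ratios of 0.555 (0.524 to 0.587) and 0.608 (0.584 to 0.633). Atp5g1, one of 3 genes that encode the same membrane ring subunit c of ATP synthase, fell from 746 to 419 CPM and from 892 to 551 CPM, ratios of 0.562 (0.542 to 0.582) and 0.617 (0.603 to 0.633). Ndufa4 fell from 2090 to 1203 CPM and from 2015 to 1267 CPM, ratios of 0.576 (0.564 to 0.588) and 0.628 (0.618 to 0.639). As the most abundant complex IV transcript outside the hypoxic range in library 1, Ndufa4 alone made up a large part of that complex's lower share.

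Next in order were complex I subunits of the arm that takes up NADH and passes electrons to quinone, and some of the membrane arm. Ndufb7 stood at 273 against 464 CPM and 349 against 514 CPM (0.590 and 0.679), and Ndufa5 at 340 against 546 CPM and 494 against 706 CPM (0.623 and 0.699). The iron-sulfur core subunits Ndufs8 (0.621 and 0.673) and Ndufs7 (0.648 and 0.703) and Ndufb8 (0.654 and 0.749) were likewise past the limit in library 1 and not in library 2. In neither library past it were the flavin-binding Ndufv1 (0.685 and 0.746), Ndufb4 (0.680 and 0.742), Ndufb10 (0.681 and 0.757), Ndufa12 (0.715 and 0.722) and, in complex IV, Cox5a, at 677 against 978 CPM and 745 against 1041 CPM (0.692 and 0.716). The rare Atp5s gave 0.631 and 0.732 on few UMIs. None of these met the rule.

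**Figure D3:**
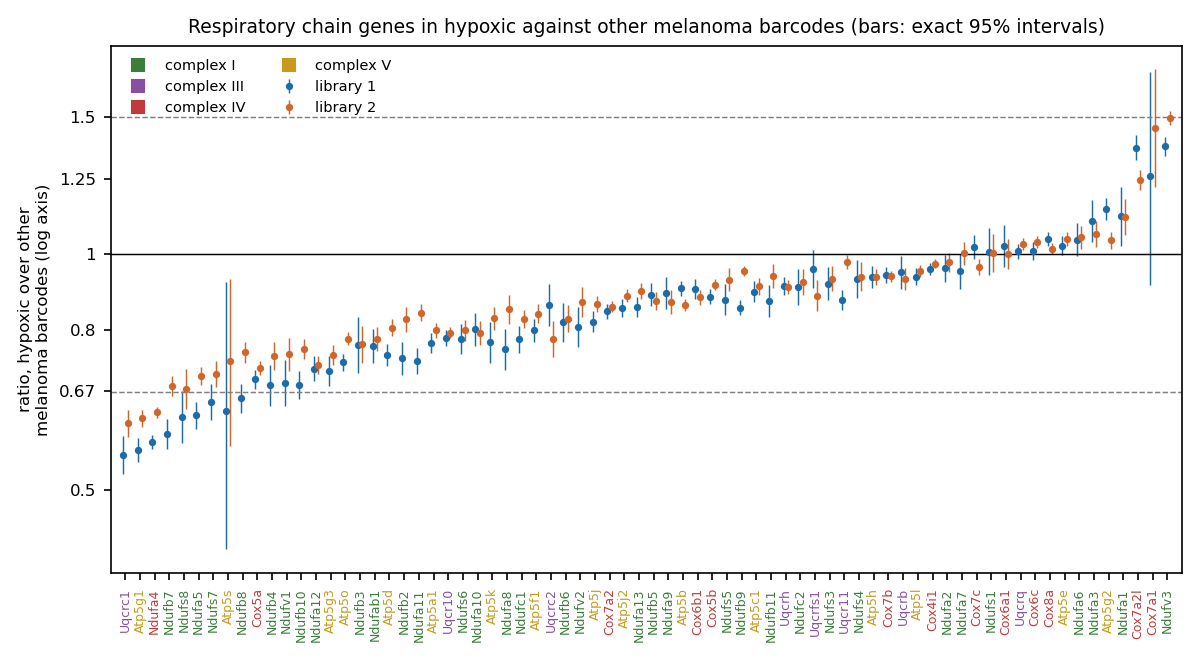
Ratio of CPM in hypoxic against other melanoma barcodes (log axis) for 72 of the 73 tested respiratory chain genes, in libraries 1 and 2 (point colour; gene names are coloured by complex), with exact 95% intervals for counting error. Dashed lines mark ratios of 1.5 and 0.67, and Uqcrc1, Atp5g1 and Ndufa4 are past the lower line in both libraries.

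A smaller set stood level or higher. Complex IV genes such as Cox4i1 (1823 against 1905 CPM, 2023 against 2080 CPM; 0.957 and 0.972), Cox6c (1.01 and 1.04), Cox8a (1.05 and 1.02) and Cox6a1 (1.02 and 1.002) were within a few percent of 1. Cox7a2, the liver-type isoform of subunit 7a, gave 0.846 and 0.857, and Cox6b1 0.903 and 0.881. Ndufv3, a small accessory subunit of the NADH-binding module, stood at 820 against 597 CPM and at 1051 against 704 CPM, ratios of 1.37 (1.34 to 1.41) and 1.49 (1.46 to 1.52). Cox7a2l stood at 480 against 351 CPM and 418 against 336 CPM, ratios of 1.37 (1.32 to 1.42) and 1.246 (1.21 to 1.28). Neither met the rule, and both were the highest of the abundant respiratory genes in each library.

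The isoform families split. Of the 3 subunit c genes, which encode an identical mature protein behind different import signals, Atp5g1 was called lower, Atp5g3 stood at 292 against 411 CPM and 375 against 503 CPM (0.709 and 0.744), and Atp5g2 stood at 583 against 510 CPM and 552 against 529 CPM (1.14 and 1.04). In the hypoxic range Atp5g2 was thus the most abundant of the 3 in library 1 and level with Atp5g1 in library 2. Outside that range Atp5g1 was the most abundant in both libraries. Ndufa4l2, the HIF-responsive relative of Ndufa4, was seen in the hypoxic range with 16 and 24 UMIs, against 23 and 44 UMIs in the larger class outside it. This gave 1.90 against 0.734 CPM and 1.72 against 0.869 CPM, ratios of 2.59 (1.28 to 5.13) and 1.98 (1.15 to 3.33). It was too rare in library 1 for the rule, and its level was far under that of Ndufa4. Cox4i2, the hypoxia-responsive isoform of subunit 4, had 0 and 1 UMIs in the hypoxic range and 1 and 9 outside it. No rise of Cox4i2 was detectable in melanoma, where a level of 0 would still allow 0.357 CPM in the hypoxic range of library 1. Cox7a1, the muscle isoform, stood at 6.78 against 5.39 CPM and 13.4 against 9.24 CPM (1.26, 0.915 to 1.71, and 1.45, 1.22 to 1.72).

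The 5 NRF1-motif genes did not behave alike in this comparison. Uqcrc1 was at the bottom of all respiratory genes, Atp5k gave 0.773 and 0.828 and Ndufa11 0.730 and 0.842, while Cox6a1 gave 1.02 and 1.002 and Atp5g2 1.14 and 1.04.

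Mitochondrially encoded genes split by complex in the hypoxic range. No gene of the 13 was called. The complex I subunit mt-Nd1 stood at 1394 against 2088 CPM and 1781 against 2363 CPM (0.668 and 0.753), and mt-Nd4 gave 0.810 and 0.830. The catalytic complex IV subunit mt-Co1 stood at 7627 against 6273 CPM and 9596 against 7784 CPM (1.22 and 1.23). The complex I share was lower from both genomes (0.831 and 0.841 for mitochondrial genes), whereas for complex IV the nuclear share was lower (0.876 and 0.893) and the mitochondrial share higher (1.07 and 1.17). The nuclear share over the mitochondrial share was thereby 0.926 and 0.954 in the hypoxic range and 1.06 and 1.14 outside it.

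Melanoma barcodes were also split into 5 bins of equal size by the hypoxia score, and the nuclear share did not fall steadily over them. From the lowest to the highest bin it was 4.22%, 4.25%, 4.17%, 3.76% and 3.48% in library 1 and 4.66%, 4.68%, 4.66%, 4.42% and 4.02% in library 2. It was thus level over the lower 3 bins and lower in the upper ones, in both libraries. Ndufa4 followed the same course, from 2232 and 2262 CPM in the lowest 2 bins to 1152 CPM in the highest in library 1 and from 2104 and 2103 CPM to 1198 CPM in library 2. Ndufv3 went from 450.5 to 836 CPM and from 526 to 1068 CPM between the outer bins, while Cox4i1 was 1849 and 1814 CPM in library 1. Glycolytic genes went from 2.04% to 3.88% and from 2.07% to 3.57%.

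**Figure D4:**
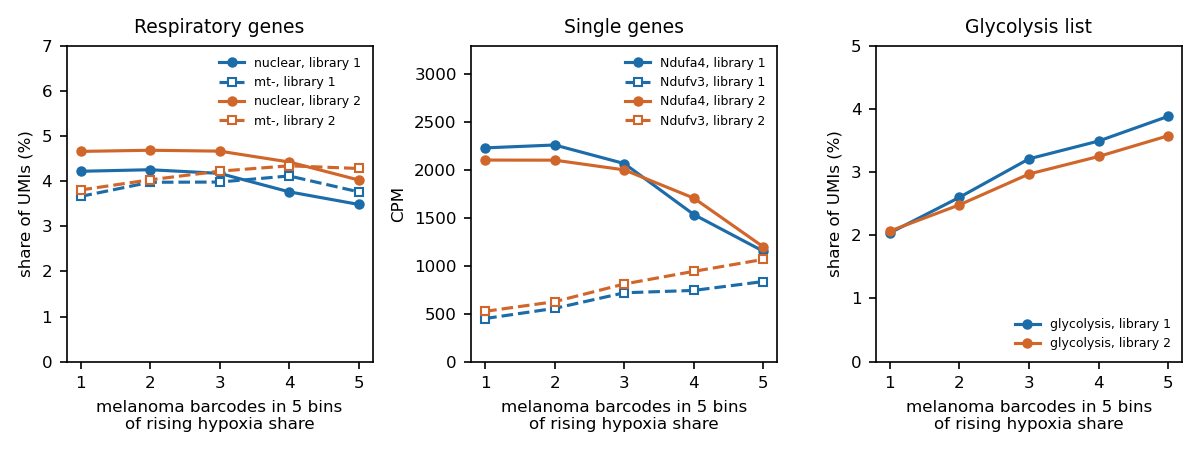
Melanoma barcodes in 5 equal bins of the hypoxia score, lowest to highest, in libraries 1 and 2: nuclear and mitochondrial shares in percent (left), Ndufa4 and Ndufv3 in CPM (middle) and the glycolysis share in percent (right). The nuclear share is level over the lower 3 bins and ends at 3.48% and 4.02%.

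The share of cycling barcodes moved with the score. It was 92.4% and 89.0% in the lowest bin and 38.3% and 35.8% in the highest, and 40.3% and 39.2% in the hypoxic range against 79.9% and 78.0% outside it. The split was then repeated with only non-cycling melanoma barcodes. The highest 25% of the score was taken anew among them, so the threshold and both groups changed. The ratio of the nuclear share was 0.861 and 0.849, close to that of all melanoma barcodes. Of 72 genes then tested, 2 were called lower and none higher, where 8.98% and 3.38% of all genes were. The mean log2 ratio over the libraries went from -0.73 to -0.66 for Ndufa4 and from -0.78 to -0.64 for Uqcrc1, which kept their call, and from -0.76 to -0.54 for Atp5g1, which lost it. The positive values shrank most: Ndufv3 went from 0.52 to 0.17 and Cox7a2l from 0.38 to 0.10. The differences of the last 2 genes were thus larger among all melanoma barcodes than among non-cycling ones. The parts of cycling and of the changed threshold in these shifts were not tested.

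Other mitochondrial lists in the hypoxic range gave a mixed picture around the respiratory genes. Of 4 complex II genes, the iron-sulfur subunit Sdhb was called lower, at 222 against 437 CPM and 273 against 513 CPM (0.507 and 0.533). Cyc1, cytochrome c1, a complex III subunit whose symbol the rule does not cover, was called lower at 226 against 418 CPM and 229 against 394 CPM (0.541 and 0.581). Of 46 assembly factors tested, 8 were called lower, 17.4% where 14.2% of all genes were (Coa3, Ndufaf2, Ndufaf4, Ndufaf7, Sdhaf1, Sdhaf4, Tmem70 and Uqcc1). The single one called higher was Higd1a, a small hypoxia-induced protein of complex IV, at 2436 against 984 CPM and 2604 against 1160 CPM (2.48 and 2.24). None of 16 tricarboxylic acid cycle genes was called, with medians of -0.19 and -0.18. Glycolysis went the other way, with 7 of 16 genes called higher (Aldoc, Eno2, Gpi1, Hk1, Hk2, Pfkl and Pfkp), where 7.65% of all genes were. All 16 were above 1 in both libraries. The range was chosen by hypoxia-response genes, so genes that move with that score stand higher in it by the choice. Of 12 genes for mitophagy, pyruvate dehydrogenase kinases and mitochondrial transport, 6 were called higher, where 7.65% of all genes were. The mitophagy receptors Bnip3 (3.35 and 3.19) and Bnip3l (3.06 and 2.95) led them, with Pdk3 at 2.32 and 2.12 and Pdk1, whose product inhibits pyruvate dehydrogenase, at 1.77 and 1.78. In the same list the import receptor Tomm20 was called lower (0.630 and 0.611). Of 15 biogenesis genes, Yy1 was called higher (1.65 and 1.68) and the mitochondrial RNA polymerase gene Polrmt lower (0.317 and 0.426), as was Ppargc1b, on few UMIs.

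Among myeloid cells, macrophages (gated on genes such as C1qa, Ms4a7 and Mrc1) carried a higher respiratory share than monocytes (Ly6c2, Plac8, Ccr2 and others), with ratios of 1.14 (1.13 to 1.16) and 1.22 (1.20 to 1.24). The mitochondrial share was higher by more, 1.36 and 1.44. Of 71 genes tested, 53 were above 1 in both libraries and 7 below. Calls were fewer than for genes in general: 8 higher and 3 lower, where 18% of all 5005 genes were called higher and 12% lower. With stricter gates 13 were higher and 1 lower, and 13 were higher after melanoma RNA was subtracted. For these settings the share of all genes called is not given, so the counts say nothing particular to respiratory genes. The median log2 ratio was 0.31 and 0.41, against 0.09 and 0.13 for all genes, and -0.26 and -0.32 for ribosomal protein genes.

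All 8 genes called higher in macrophages belonged to complex I, to which 36 of the nuclear respiratory genes were assigned. Of all 5005 genes, 18% were called higher, and whether complex I stood out from genes at large was not tested. The list also rests on the limit of 1.5, which Atp5g1 of ATP synthase missed in library 1 only, as given below. Ndufa12 stood at 312 against 134 CPM and 362 against 164 CPM (2.33 and 2.21). Ndufab1, which serves both complex I and mitochondrial fatty acid synthesis, stood at 131 against 74.3 CPM and 169 against 61.3 CPM (1.76 and 2.76). Ndufa10 stood at 155 against 91.7 CPM and 190 against 87.6 CPM (1.70 and 2.17). For all 3 the levels in macrophages of either library were above those in monocytes of either library. Ndufc1 gave 1.76 and 1.94, Ndufa5 1.72 and 1.84, Ndufs5 1.61 and 1.88, Ndufs3 1.51 and 1.67 and Ndufs7 1.55 and 1.61. The mitochondrial genes called higher were also of complex I, mt-Nd1 (1.81 and 1.67) and mt-Nd2 (1.80 and 1.72), and of the 4 complex II genes Sdha and Sdhc were called higher. The ATP synthase genes had the highest median (0.40 and 0.50) without a call, with Atp5g1 next to the threshold at 494 against 333 CPM and 570.5 against 361 CPM (1.48 and 1.58). Cox4i1 (0.963 and 1.08), Cox8a (1.02 and 1.08) and Ndufa4 (1.06 and 1.18) stood near 1.

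The 3 genes lower in macrophages were again from different complexes. Uqcrh, the hinge protein that docks cytochrome c1 in complex III, stood at 433 against 727 CPM and 374 against 692 CPM, ratios of 0.595 (0.538 to 0.658) and 0.541 (0.479 to 0.611). Cox7a2l stood at 262 against 410 CPM and 221 against 428 CPM (0.639 and 0.517). Ndufa6, a complex I accessory subunit that binds the acyl carrier protein, stood at 159 against 278 CPM and 199 against 301 CPM (0.573 and 0.662). With stricter gates Cox7a2l and Ndufa6 lost the call, at mean log2 ratios of -0.70 and -0.66, and Uqcrh kept it at -0.83. All 3 recur among the exceptions in the lymphoid comparisons.

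Cox4i2 was seen mainly in macrophages. It had 24 and 32 of its 91 UMIs there, or 13.4 and 19.2 CPM, against 6 and 2 UMIs in monocytes, or 5.50 and 2.92 CPM, ratios of 2.43 (0.968 to 7.27) and 6.57 (1.68 to 56.6). It had 0 UMIs in CD8 T, CD4 T, NK, B and dendritic cells of both libraries, which in CD8 T cells allows up to 5.95 and 12.03 CPM. In neutrophils 1 UMI was seen in library 2, and in melanoma, the deepest class, it stood at 0.0252 and 0.155 CPM. Fewer than 50 UMIs put it outside the rule.. The macrophage class held no UMI of the fibroblast list in library 1 and 0.600 CPM in library 2, and 8.91 and 5.40 CPM of the endothelial list; the part of endothelial RNA was not tested. Macrophages also cycled more than monocytes (36.5% and 36.6% against 1.60% and 1.65%) and were deeper, with medians of 3716 and 2596.5 UMIs, and the part of either in the ratios was not tested.

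Neutrophils, with 71 and 32 barcodes and medians of 609 and 587.5 UMIs, had few transcripts of the respiratory chain. Of 66 genes tested against monocytes, 31 were called lower and none higher, where 34.8% of all 1954 genes were called lower and 6.4% higher. With stricter gates 20 were lower, and with at least 1000 UMIs per barcode 13, without the share of all genes under these settings. The nuclear share was 0.402 (0.362 to 0.445) and 0.751 (0.683 to 0.823) of the monocyte share. The libraries differed in size here, with median log2 ratios of -1.40 and -0.41, against -0.80 and -0.24 for all genes. Without the pseudocount of 0.5 UMIs, which pulls such small counts toward 0, they were -1.65 and -0.58 against -1.01 and -0.43. Ribosomal protein genes were called lower more often, 51 of 80, and only 2 of 12 mitochondrial genes were. Counts were small: Atp5a1, the catalytic partner of Atp5b, had 4 and 3 UMIs in neutrophils, 84.7 and 103 CPM against 342 and 315 CPM (0.247 and 0.326). Cox4i1 stood at 677 against 1287 CPM and 755 against 1253 CPM. With barcodes of at least 1000 UMIs the ratio of shares was 0.557 and 1.004. Most of the 32 barcodes of library 2 were under that limit, and neither the number left nor an interval is given. The lower share was thus not seen in the barcodes left in library 2, which need not stand for neutrophils in general.

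In lymphoid cells, CD8 T cells stood above monocytes, with ratios of the nuclear share of 1.26 (1.24 to 1.29) and 1.35 (1.31 to 1.39). Of 70 genes tested, 56 were above 1 in both libraries and 2 below. The rule called 11 higher and none lower, where 17.1% of all 2523 genes were called higher and 28.2% lower. The median was 0.34 and 0.46, against -0.04 and -0.05 for all genes. The 11 were 6 of complex I (Ndufa12, Ndufa5, Ndufa8, Ndufab1, Ndufb7 and Ndufs6) and 5 of ATP synthase (Atp5b, Atp5g1, Atp5g2, Atp5g3 and Atp5j), with none of complexes III and IV.

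All 3 subunit c genes were called. Atp5g2 stood at 452 against 218 CPM and 501 against 215 CPM (2.07 and 2.33), Atp5g3 at 212 against 124 CPM and 261 against 139 CPM (1.72 and 1.88) and Atp5g1 at 502 against 333 CPM and 541 against 361 CPM (1.51 and 1.501). Atp5b stood at 700.4 against 437 CPM and 694 against 397 CPM (1.60 and 1.75). Ribosomal protein genes rose alongside, 46 of 81 called higher, with medians of 0.77 and 0.65. By means over barcodes 6 respiratory genes were called higher. When mitochondrial, ribosomal, glycolytic and hypoxia-list genes were taken out of the totals, 32 respiratory genes were called higher (26.7% of all genes), and the medians, without a pseudocount, went from -0.05 and -0.06 to 0.24 and 0.18 for all genes and from 0.34 and 0.45 to 0.62 and 0.70 for the respiratory genes. Erythroid transcripts were high in CD8 T barcodes of library 1 (2960 CPM, against 36.1 CPM in library 2); their part was not tested.

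NK cells, few in library 2 (30 barcodes, against 147), stood below CD8 T cells, with ratios of the nuclear share of 0.856 (0.822 to 0.890) and 0.758 (0.696 to 0.825). Only 48 genes had enough UMIs, of which 8 were called lower and none higher, where 17.1% and 6.41% of 702 genes were. The 8 were Ndufa5, Ndufa11, Ndufa12, Ndufb7, Ndufs5, Atp5c1, Atp5g1 and Cox5a, and their library 2 values rest on few NK UMIs. With at least 1000 UMIs per barcode 3 were lower, by means over barcodes 2 were lower and 1 higher, and with stricter or with looser gates 1 was higher. Shares of all genes under these settings are not given. Ndufs5, for example, had 16 and 1 NK UMIs, 111 against 179 CPM and 37.2 against 233 CPM. Above 1 in both libraries were 4 genes, among them the exceptions of the macrophage comparison: Ndufa6 at 380 against 224 CPM and 372 against 273 CPM (1.70 and 1.37), Cox7a2l at 733 against 496 CPM and 558 against 469 CPM (1.48 and 1.19), and Uqcrh (1.24 and 1.05). The fourth was Atp5h (1.11 and 1.1001).

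Cycling CD8 T cells (60 and 49 barcodes) had a nuclear share of 2.67% (2.61 to 2.73) and 2.99% (2.90 to 3.09), against 2.31% (2.25 to 2.37) and 2.81% (2.72 to 2.90) in other CD8 T cells (159 and 92 barcodes). The ratio was 1.16 (1.12 to 1.20) in library 1 and 1.07 (1.02 to 1.12) in library 2, and the median log2 ratio of the genes was 0.30 and 0.03, against 0.12 and 0.00 for all genes. Cycling barcodes were deeper, with medians of 3950 and 2307 UMIs against 1232 and 1079, and the part of depth was not tested. Without the pseudocount and with at least 1000 UMIs per barcode, the median log2 ratio was 0.22 and -0.02, against 0.12 and -0.01 for all genes. With looser gates it was 0.27 and -0.02, and by means over barcodes 0.36 and 0.12. Few single genes met the rule, also by means over barcodes (4 higher) and with looser gates (2 higher), settings without a share of all genes here. Of 48 tested, 1 was called higher and none lower, where 7.18% and 4.21% of 641 genes were. The gene was Ndufa12, at 353 against 193 CPM and 348 against 175 CPM, ratios of 1.83 (1.27 to 2.66) and 1.99 (1.16 to 3.52). Cox7a2l (0.582 and 0.770), Ndufa6 (0.741 and 0.691) and Uqcrh (0.803 and 0.718) lay below 1 in both libraries. In NK cells against all CD8 T cells, cycling ones included, their position was the reverse. Against other CD8 T cells, Uqcrh in NK cells was higher in library 1 (1176 against 1052 CPM) and lower in library 2 (1079 against 1207 CPM). Cox7a2l and Ndufa6 were higher in NK cells than in other CD8 T cells in both libraries. The macrophage, neutrophil, CD8 T and melanoma comparisons share the monocyte barcodes, and the NK and cycling comparisons share CD8 T barcodes.

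Between the libraries, the nuclear share was higher in library 2 in 10 of the 11 classes plotted, dendritic cells being the exception, and the intervals of CD4 T, NK, B and plasmacytoid dendritic cells overlapped. Macrophage and monocyte barcodes of library 2 also held more pigment transcripts, as given above. Subtraction of melanoma RNA moved 12 shares out of their counting interval and left 12 within it. The part of melanoma RNA in the differences between the libraries was not tested. A gene-wise comparison within melanoma, monocyte, macrophage and CD8 T barcodes called 1 of 69 respiratory genes higher in library 2 in all 4 classes and none lower, where 0.49% and 0.326% of 1838 genes were. The gene was Atp5k, another of the NRF1-motif genes, which went from 189 to 355 CPM in melanoma, from 139 to 249.7 CPM in monocytes, from 202 to 353 CPM in macrophages and from 161 to 381 CPM in CD8 T cells (1.88, 1.79, 1.74 and 2.37). Its transcript is 371 bases long. Ndufa1, of 419 bases, gave 1.66, 1.30, 2.10 and 2.31 in the same order, and the mitochondrial genes mt-Atp8, of 204 bases, and mt-Nd4l, of 297 bases, were called higher.

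Short transcripts as a group stood higher in library 2. The 5 respiratory genes under 500 bases had median log2 ratios of 0.39, 0.47, 0.38 and 0.55 in the 4 classes, the 37 of 500 to 1000 bases 0.19, 0.13, 0.25 and 0.25, the 22 of 1000 to 2000 bases 0.03, 0.00, 0.12 and -0.01, and the 5 of 2000 bases or more 0.14, -0.07, 0.21 and -0.11. The order therefore did not extend to the longest genes in melanoma and macrophages. All 35 genes under 500 bases had medians of 0.35, 0.38, 0.37 and 0.43, so the higher values of short transcripts were not particular to respiratory genes, and 6 of the 9 genes called higher in library 2 were among them. The libraries differ in genotype and in preparation, and these cannot be told apart.

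**Figure D5:**
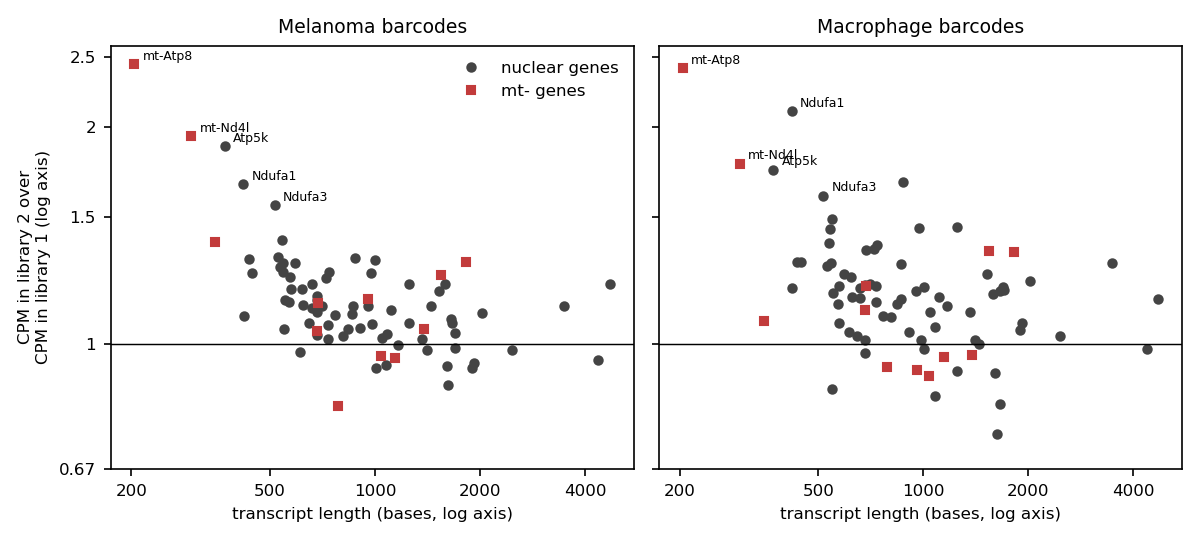
Ratio of CPM in library 2 against library 1 (log axis) by transcript length in bases (log axis) for the respiratory chain genes, in melanoma and macrophage barcodes. Ratios are highest for the shortest transcripts, among them Atp5k at 1.88 and 1.74 with 371 bases.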

How the data were processed

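Droplet 3′ libraries of CD45+ tumour cells were sequenced on a HiSeq 4000 to a planned 10000 reads per cell (labels' protocols). The authors deposited 1 filtered matrix of UMI counts per gene and barcode for both libraries, not normalised, with 33700981 entries, all whole numbers of at least 1. Per the file headers it was written by software version 3.0.2, and mm10 and Cell Ranger are named in the submitters' processing notes. The assignment of reads to genes, including shared reads of near-identical copies, is not stated.

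The genes, lists and markers were chosen with earlier results of these data known, and gate thresholds were set after marker distributions were seen. Gates are UMIs of a marker list per 10000 UMIs. Melanoma needed pigment of at least 30 and immune under 15. Immune barcodes needed immune of at least 15 with at least 3 UMIs and pigment under 30. Their classes then needed T 10, NK 20, B 10, monocyte 20, macrophage 40, neutrophil 100, dendritic 8 or plasmacytoid dendritic 10, with at least 2 markers (3 for NK and plasmacytoid dendritic cells). Of the monocyte and macrophage lists, 1 had to be 2 times the other. Cycling needed 5 per 10000 and 2 genes. Doublets were treated only by leaving out barcodes of several lineages, and no caller was run.

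CPM are the UMIs of a gene summed over a class in 1 library, relative to all UMIs of that class. Levels have exact Poisson, shares exact Clopper-Pearson and ratios exact conditional binomial intervals at 95%, and a count of 0 was given a limit of 3 counts. All cover counting error only, and the UMI total of a class sets their width. Medians of log2 ratios used a pseudocount of 0.5. Named genes are the 12 highest and 12 lowest ratios of each comparison on the same side of 1 in both libraries, the isoform families, the most and least abundant genes of each complex, the 13 mitochondrial genes and called genes of the other lists; of these, the text gives the ones its statements rest on. The promoter motif genes and those named by transcript length were picked with their values known.

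One item is not reported here. The computation of ratios was checked on simulated data with known answers. Alternatives were other limits on UMIs and mitochondrial share, copies kept, stricter and looser gates, means over barcodes, other totals, subtraction of melanoma RNA, other ratio and UMI limits, and for the hypoxic range other fractions, non-cycling barcodes and thinning to 5000 UMIs. Python 3.11.15, numpy 2.4.6, scipy 1.17.1, pandas 2.3.3 and matplotlib 3.10.9 were used.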

Additional observations from a re-analysis of the deposited data

How the results depend on the processing

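Values are counts of respiratory chain genes called. The share of all genes called can change with the setting too and is not given here. The counts therefore do not show whether respiratory genes moved more than genes at large. With at least 1000 UMIs per barcode, 13 were lower in neutrophils and 3 lower in NK cells. With stricter gates 13 were higher and 1 lower in macrophages, 20 lower in neutrophils and 1 higher in NK cells, and with looser gates 1 was higher in NK and 2 in cycling CD8 T cells. By means over barcodes 6 were higher in CD8 T cells, 1 higher and 2 lower in NK cells and 4 higher in cycling CD8 T cells. Without mitochondrial, ribosomal, glycolytic and hypoxia-list genes in the total, 32 were higher in CD8 T cells, and after subtraction of melanoma RNA 13 were higher in macrophages.

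At a ratio of 2, none was lower in hypoxic melanoma or NK cells or in macrophages, 1 was higher in macrophages and 1 in CD8 T cells, 13 were lower in neutrophils, and 0 were higher in cycling CD8 T cells or in library 2. At the least strict ratio tried, 2 were higher and 21 lower in hypoxic melanoma, 32 higher in macrophages, 33 higher in CD8 T cells, 1 higher and 20 lower in NK cells, 11 higher and 3 lower in cycling CD8 T cells and 7 higher in library 2. With at least 10 UMIs per gene, 1 was higher in hypoxic melanoma, 14 lower in NK cells and 3 higher and 1 lower in cycling CD8 T cells. With the highest 10% of the hypoxia score 5 were lower, and with the highest 50% there were 0. The other 147 counts stayed within 1.5 times. Of ratios of shares 150 moved by at most 0.1 (log2) and 12 by more, without a change of direction except neutrophils of library 2, at 1.004 with at least 1000 UMIs (0.751 otherwise). Of shares 187 stayed within their counting interval and 77 left it, 23 of these under the other total and 14 by means over barcodes.

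Of single genes, 1802 values kept their side of the rule, 68 became called, 135 lost the call and 2 changed sign, both in neutrophils against monocytes at 1000 UMIs: Atp5g2 (log2 ratio 0.51) and Ndufb4 (0.28). Why results moved was not tested. NK, B and neutrophil classes are limited by their few UMIs. No paired analysis was possible because there is 1 library per genotype, and no replicate could be left out.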
